A study of Mus musculus with 3 samples.

Results

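Intermediate filaments are the cytoskeletal fibers by which epithelial and mesenchymal cells are classically told apart. Keratins assemble only as pairs of 1 type I and 1 type II chain, so that Krt18 and Krt19 (type I) need a type II partner such as Krt7 or Krt8, and Krt14 (type I) pairs with Krt5 (type II) in the basal layer of stratified epithelia. Vimentin (Vim) is the type III filament protein of mesenchymal cells, and nestin (Nes) is a long type VI chain that co-assembles with vimentin in progenitor cells. The epicardium is a simple epithelium of mesothelial type, a class of cell known for carrying keratins and vimentin together.

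The 8 genes described here were taken by symbol (Krt7, Krt8, Krt18, Krt19, Krt14, Krt5, Vim and Nes) and all 8 were found among the 18245 genes of the table. All cells came from adult C57BL/6 mice. The labels give the ventricular epicardium as the tissue of all 3 kinds, while the study's methods describe peeled epicardium for CDCs and repeated digestion of the heart for pEpiCs. CDCs were cardiosphere-derived cells of mesenchymal shape grown out of the epicardium, and pEpiCs were primary epicardial cells in culture. CDC-EpiCs were cells of an epithelial clone that formed in CDC cultures within 2 weeks under 10 µM SB-431542, which blocks the kinase of the type I TGF-beta receptor, and that was picked with a cloning cylinder. CDC-EpiCs therefore differed from CDCs in treatment, in selection and in being 1 clone, and the parts of these in a difference cannot be told apart, since no untreated clone was compared. Each kind of cell had 3 libraries of 22008833 to 22756045 expected counts. The labels list 1 sample of each kind and speak of 3 separate samples at extraction, so p-values measure the spread between libraries, which may be technical. These were bulk cultures, in which fewer cells of a type and less RNA per cell cannot be told apart.

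Before the results, 2 departures among the libraries bear on them. CDC libraries 1 and 2 held transcripts of blood, liver and heart muscle that were at 0 or 1 count in CDC library 3: albumin (Alb) had 660, 599 and 1 counts in CDC libraries 1 to 3, the hemoglobin chain Hba-a1 523, 894 and 0, and the cardiac myosin Myh6 191, 190 and 0. Macrophage markers stood apart in pEpiC library 1: 10 markers summed to 806 CPM (counts per 1000000, after TMM scaling) there and to 317 and 292 CPM in pEpiC libraries 2 and 3, against 58.1 to 61.1 CPM in CDC and 22.8 to 25.2 CPM in CDC-EpiC. Levels are given as mean ± SD (n = 3) here and below. All 10 mesothelial and epicardial markers were tested in each comparison. Against CDC, 8 rose and 1 fell in CDC-EpiC, and 4 rose and 6 fell in pEpiC. Their summed level was 765 to 838 CPM in CDC, 6528 to 7501 in CDC-EpiC and 632 to 668 in pEpiC.

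Transcripts of simple-epithelial keratins were present in all 3 kinds, in a different mixture in each, and always far below vimentin. TPM, which is scaled for transcript length, allows levels of different genes to be compared. In CDC the order of mean levels was Vim at 4226 TPM, Krt19 at 48.3, Nes at 4.25, Krt14 at 3.06 and Krt7 at 0.797 TPM, with Krt8, Krt18 and Krt5 at 0.267, 0.190 and 0.0633 TPM. In CDC-EpiC it was Vim at 2256 TPM, Krt19 at 37.2, Krt7 at 10.0, Nes at 1.31 and Krt14 at 0.617 TPM, with Krt18, Krt8 and Krt5 at 0.243, 0.223 and 0.140 TPM. In pEpiC it was Vim at 2646 TPM, Nes at 13.8, Krt7 at 10.0, Krt8 at 3.72, Krt18 at 3.56, Krt19 at 2.34, Krt14 at 0.410 and Krt5 at 0.160 TPM. Neighbors in these orders did not overlap between libraries, except Krt8 with Krt18 in all 3 kinds, and the lower of that pair with Krt5 in CDC and CDC-EpiC. Krt19 thus stood next below vimentin in CDC and CDC-EpiC and 6th of 8 in pEpiC.

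**Figure D1:**
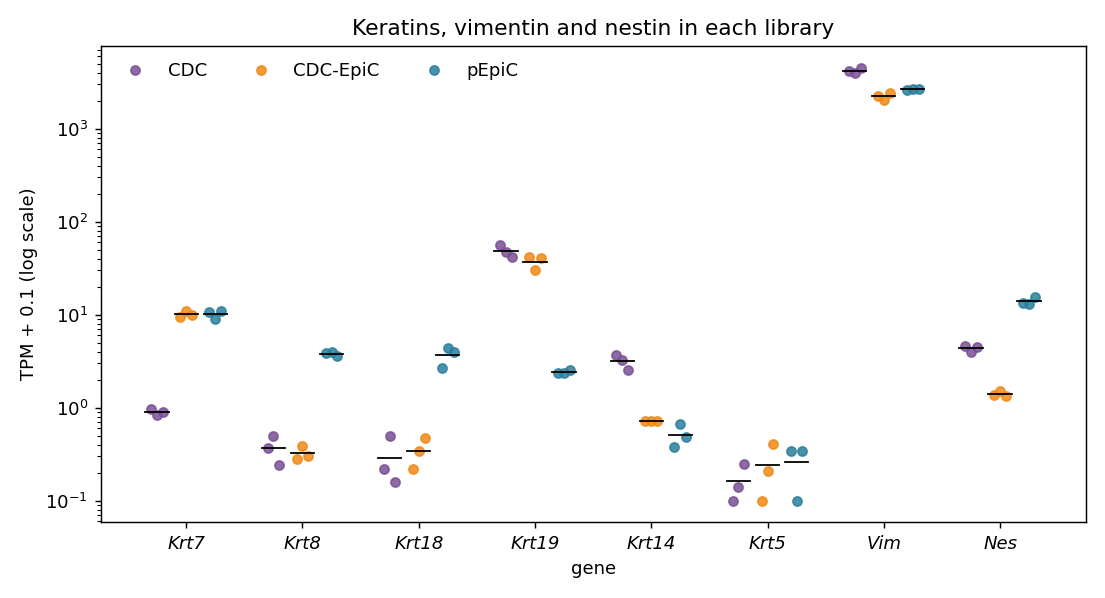
TPM of the 8 genes in each library, with 0.1 added so that zeros can be drawn, on a log scale. Points are libraries (3 of each kind), and bars are means. Krt7 was near 10 TPM in CDC-EpiC and pEpiC and under 1 TPM in CDC, Krt8 and Krt18 were high in pEpiC only, and Krt19 was low in pEpiC only.

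The 3 comparisons asked how the filament genes of the clone differed from those of the CDCs it came from, how CDCs differed from epicardial cells, and how near the clone lay to epicardial cells. CDC-EpiC against CDC and pEpiC against CDC share the CDC libraries. Between CDC-EpiC and CDC, 1 gene rose (Krt7) and 4 fell (Krt19, Krt14, Vim and Nes) of the 5 that passed the filter on low counts. Of all genes tested there, 68.8% passed, 34.2% as higher and 34.6% as lower in CDC-EpiC, and the libraries of the 2 kinds did not overlap for 72.1%. Between pEpiC and CDC, 4 rose (Krt7, Krt8, Krt18 and Nes) and 3 fell (Krt19, Krt14 and Vim) of 7 tested, beside 78.3% of all genes, 39.8% higher and 38.5% lower in pEpiC, with no overlap for 81.5%. Between CDC-EpiC and pEpiC, 3 were higher in the clone (Krt7, Krt19 and Vim) and 3 lower (Krt8, Krt18 and Nes) of 6 tested, beside 81.9% of all genes, 40.3% higher and 41.5% lower, with no overlap for 84.0%. Since most genes of the table differed between any 2 kinds, the count of members called says little, and the direction and size for each gene carry the description. The same shares apply to the counts of every gene list given here.

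**Figure D2:**
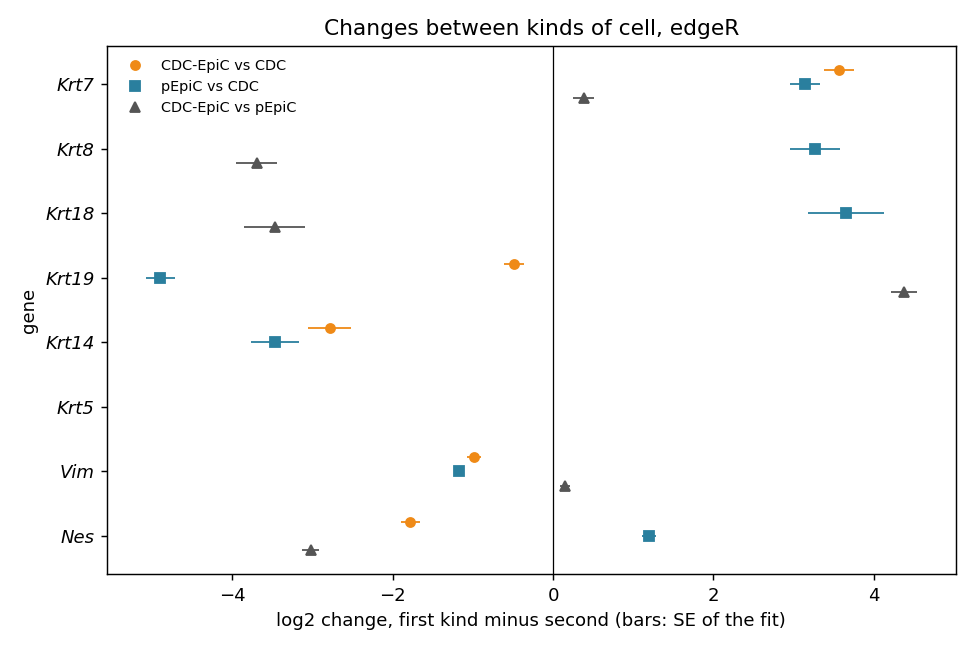
Fitted log2 change of each gene in each comparison, first kind minus second, with bars of 1 SE. A missing point is a gene below the count filter, and Krt5 has none. Krt7 rose over CDC in CDC-EpiC and in pEpiC, whereas Krt8 and Krt18 rose in pEpiC and lay lower in CDC-EpiC than in pEpiC.

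Krt7, the type II keratin of mesothelial and ductal epithelia, was the keratin that CDC-EpiC and pEpiC had in common over CDC. It had 17, 15 and 15 counts in CDC, 181, 210 and 183 in CDC-EpiC and 160, 129 and 161 in pEpiC. Every CDC-EpiC and pEpiC library thus lay far above every CDC library. The rise was 11.8-fold in CDC-EpiC (log2 3.56, SE 0.19, adjusted p = 1.8e-10 by edgeR) and 8.81-fold in pEpiC (log2 3.14, SE 0.18, adjusted p = 1.6e-07 by edgeR). Between the clone and pEpiC the Krt7 difference was small at log2 0.38 (SE 0.13, adjusted p = 0.0192 by edgeR). That call was not kept on the TPM scale (log2 0.0050, adjusted p = 0.963 by limma) or with an offset for transcript length (log2 −0.06, adjusted p = 0.665 by edgeR), with DESeq2 (adjusted p = 0.0584), or without CDC-EpiC library 2 (0.0697 by edgeR) or pEpiC library 2 (0.0820 by edgeR).

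Krt8 and Krt18, the type II and type I chains of the primary keratin pair of simple epithelia, were raised in pEpiC and near the limit of detection in the other kinds. Krt8 had 6, 9 and 3 counts in CDC, 4, 6 and 4 in CDC-EpiC and 66, 65 and 59 in pEpiC. Krt18 had 2, 7 and 1 counts in CDC, 2, 4 and 6 in CDC-EpiC and 34, 55 and 51 in pEpiC. The lowest pEpiC library exceeded every CDC and CDC-EpiC library for both genes, and CDC and CDC-EpiC overlapped.

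Krt8 was 9.60-fold higher in pEpiC than in CDC (log2 3.26, SE 0.31, adjusted p = 4.6e-06 by edgeR) and Krt18 12.5-fold higher (log2 3.65, SE 0.47, adjusted p = 4.6e-05 by edgeR). Against pEpiC, the clone was lower by 12.9-fold for Krt8 (log2 −3.69, SE 0.26, adjusted p = 4.5e-07 by edgeR) and by 11.1-fold for Krt18 (log2 −3.47, SE 0.37, adjusted p = 1.2e-05 by edgeR). The folds rest on low counts. Without CDC library 2 the rise of Krt18 over CDC was 4.74 on the log2 scale. Without CDC libraries 1 and 2, which leaves 1 CDC library, the rises were 4.24 for Krt8 and 5.28 for Krt18 on that scale. CDC libraries 1 and 2, which held albumin, a transcript of liver, had 6 and 9 Krt8 counts against 3 in CDC library 3. Krt18 had 2 and 7 counts there against 1. The CDC-EpiC libraries, with 0 albumin counts, had 4, 6 and 4 of Krt8. Whether other tissue gave any of these counts was not tested. Macrophage markers also rose in pEpiC (10 of 10), and their part in the Krt8 and Krt18 levels was not tested. Without pEpiC library 1, where these markers were highest, the log2 changes over CDC were 3.23 for Krt8 and 3.83 for Krt18. Neither gene reached the count filter in CDC-EpiC against CDC: Krt8 had 14 counts in all against 18, a depth-adjusted ratio of 0.762 with an exact 95% interval of 0.351 to 1.62, and Krt18 had 12 against 10, a ratio of 1.17 with an interval of 0.465 to 3.04. These intervals cover counting error only. Where the genes were kept without a filter, the adjusted p was 0.599 for Krt8 and 0.818 for Krt18 (edgeR), so no rise of either was detectable in the clone at this depth.

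Both genes lie close to each other on mouse chromosome 15, Krt8 at chr15:101996698-102004482 on the minus strand and Krt18 at chr15:102028180-102032027 on the plus strand (GRCm38) with 23697 bases between them. Krt7 lies on the same chromosome at chr15:101411043-101430313. As chains that pair 1 to 1, Krt8 and Krt18 were compared per length: the ratio of their TPM was 2.25, 1 and 2.33 in the CDC libraries, 1.5, 1.21 and 0.541 in CDC-EpiC, and 1.5, 0.913 and 0.894 in pEpiC. The ratios overlapped between all kinds (exact two-sided permutation p = 0.3 for CDC-EpiC against CDC, 0.2 for pEpiC against CDC and 0.9 for CDC-EpiC against pEpiC, where 3 against 3 libraries allow no p below 0.1). In CDC and CDC-EpiC no library had more than 9 counts of Krt8 or 7 of Krt18. The overlap therefore says little about the balance of the chains there.

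Promoter sequences of these 3 genes are printed because Krt7 rose over CDC in CDC-EpiC and pEpiC, and Krt8 and Krt18 in pEpiC only. They show the 250 bases before each RefSeq transcript start (GRCm38.p6, 5′ to 3′ along the gene). Capitals mark matches to CACCTG or its reverse complement CAGGTG, the E-box core that repressors of the Snail and Zeb families are known to bind.
Krt7, chr15:101412153-101412402, plus strand: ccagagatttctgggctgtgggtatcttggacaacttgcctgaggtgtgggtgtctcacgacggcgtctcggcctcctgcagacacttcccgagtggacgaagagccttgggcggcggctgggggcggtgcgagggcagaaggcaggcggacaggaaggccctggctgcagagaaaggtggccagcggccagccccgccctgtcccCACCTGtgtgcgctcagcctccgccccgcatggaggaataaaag
Krt8, chr15:102004343-102004592, minus strand: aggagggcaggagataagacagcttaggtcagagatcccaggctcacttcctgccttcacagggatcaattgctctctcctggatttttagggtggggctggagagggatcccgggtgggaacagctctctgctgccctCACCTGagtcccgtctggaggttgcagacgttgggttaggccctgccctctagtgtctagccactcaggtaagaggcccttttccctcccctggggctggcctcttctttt
Krt18, chr15:102027966-102028215, plus strand: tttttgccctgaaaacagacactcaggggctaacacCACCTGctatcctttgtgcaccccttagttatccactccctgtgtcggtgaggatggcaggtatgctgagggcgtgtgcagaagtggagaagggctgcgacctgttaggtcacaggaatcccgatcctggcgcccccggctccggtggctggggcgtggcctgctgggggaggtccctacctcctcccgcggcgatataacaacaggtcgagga
Of the 8 genes, 7 had a promoter in the RefSeq table, and the motif was searched on both strands in 300-base windows, 250 before and 50 after the start. The E-box core was in 4 of the 7 and in 20.2% of the 32851 promoters of that length. It stood 44 bases before the RefSeq start of Krt7, 111 before Krt8, 214 before Krt18 and 128 before Krt5. Vim, Nes and Krt14 had no match in this window. The RefSeq starts of Krt7, Krt8 and Krt18 lie inside the GENCODE genes whose coordinates are given above. The Krt7 window lies wholly, and the Krt8 and Krt18 windows partly, within those genes. Distances therefore hold for the RefSeq starts only. The GC box GGGCGG or CCGCCC, in 35.7% of promoters, occurred 4 times in Krt7 and 2 times in Nes. The TATA core TATAAA or TTTATA, in 13.6%, stood 32 bases before the start of Vim and across the annotated start of Krt8. The AP-1 site TGAGTCA or TGACTCA, in 5.20%, was in none of the 7. A match is a description of the letters, and no binding was measured here.

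Krt19, a type I keratin of simple and ductal epithelia that lacks most of the tail of other keratins, showed the reverse of Krt8 and Krt18. It had 900, 792 and 635 counts in CDC, 646, 468 and 596 in CDC-EpiC and 30, 23 and 31 in pEpiC. The pEpiC libraries lay far below all others, while the highest clone library (28.6 CPM) came within 1 CPM of the lowest CDC library (28.7 CPM). Krt19 was 29.8-fold lower in pEpiC than in CDC (log2 −4.90, SE 0.18, adjusted p = 7.1e-09 by edgeR) and 20.7-fold higher in the clone than in pEpiC (log2 4.37, SE 0.16, adjusted p = 5.5e-09 by edgeR). With an offset for transcript length these changes were smaller, at log2 −4.28 and 3.79 (adjusted p = 1.9e-08 for each by edgeR). The clone lay slightly below CDC (log2 −0.48, SE 0.13, adjusted p = 0.00332 by edgeR). That call was lost in a test against a 1.5-fold change. Without CDC libraries 1 and 2, those with blood, liver and heart muscle transcripts, the change was log2 −0.18, with 1 CDC library left. Krt19 lies at chr11:100140810-100148665 on the minus strand of GRCm38.

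Together these changes altered the mixture of keratin chains. Krt7, Krt8, Krt18 and Krt19 summed to 49.5 ± 7.94 TPM in CDC, 47.7 ± 5.44 TPM in CDC-EpiC and 19.6 ± 0.843 TPM in pEpiC. Krt19 made up 97.5% ± 0.519 of that sum in CDC, 77.6% ± 4.66 in CDC-EpiC and 11.9% ± 0.0777 in pEpiC, and Krt7 made up 1.63% ± 0.213, 21.4% ± 4.39 and 51.0% ± 4.74. The type I chains (Krt18 and Krt19) exceeded the type II chains (Krt7 and Krt8) by a ratio of 45.5 ± 4.32 in CDC and 3.69 ± 0.881 in CDC-EpiC, and the ratio was 0.432 ± 0.0902 in pEpiC. The 3 kinds did not overlap in this ratio, which in single libraries ran from 41.9 to 50.3 in CDC, from 2.68 to 4.31 in CDC-EpiC and from 0.336 to 0.515 in pEpiC. These ratios count 4 keratins only. With Krt80, a further type II chain at 4.50 TPM in CDC, added to the type II side, the ratio was 8.78 ± 1.94 in CDC, 2.52 ± 0.567 in CDC-EpiC and 0.387 ± 0.0786 in pEpiC, again without overlap. No further type I chain was added to the other side, although Krt14, also type I, stood at 3.06 TPM in CDC.

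**Figure D3:**
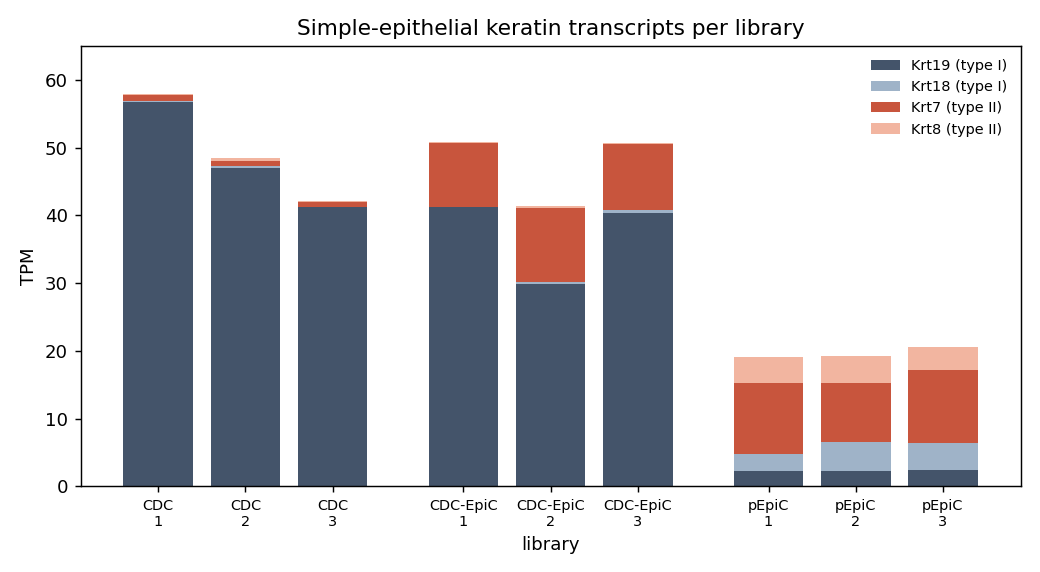
TPM of the 4 simple-epithelial keratins stacked in each of the 9 libraries, type I chains in blue and type II chains in red. Krt19 fills most of each CDC bar, Krt7 adds 9.40 to 10.9 TPM in the CDC-EpiC bars, and the pEpiC bars are lower and mostly Krt7, Krt8 and Krt18.

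Krt14 and Krt5, the pair of basal cells in stratified epithelia, were both low, and they did not move together. Krt14 had 66, 64 and 47 counts in CDC, 9, 9 and 8 in CDC-EpiC and 4, 7 and 6 in pEpiC, so that CDC lay above both other kinds in every library. It fell by 2.79 on the log2 scale in CDC-EpiC against CDC (SE 0.27, adjusted p = 2.3e-07 by edgeR) and by 3.46 in pEpiC (log2 −3.46, SE 0.30, adjusted p = 2.3e-06 by edgeR). Of its 9 values 66.7% were not whole numbers, as estimated counts are where some reads are divided among genes. How many reads were divided, and with which genes, was not measured here, so the level of Krt14 is uncertain. Between CDC-EpiC and pEpiC it was below the count filter, with 26 counts against 17 in all, a ratio of 1.57 with an exact 95% interval of 0.819 to 3.08.

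Krt5 had 0, 1 and 4 counts in CDC, 0, 3 and 8 in CDC-EpiC and 5, 0 and 5 in pEpiC, and never reached the filter. The libraries overlapped in all comparisons, and Krt14 in CDC thus had almost no transcript of its usual partner. Other markers of stratified epithelium were mixed: Trp63, the master regulator of that lineage, had at most 2 counts in any library, and the list of 9 genes, which holds Krt14 and Krt5, summed to 8.19 to 10.1 CPM in CDC, 4.91 to 5.13 in CDC-EpiC and 5.88 to 7.05 in pEpiC. Of its tested genes, 1 rose and 2 fell of 3 in CDC-EpiC and in pEpiC against CDC, and 1 of 2 was lower in CDC-EpiC than in pEpiC. Perp, a desmosome-associated membrane protein, was at 3.65 ± 0.359 CPM in CDC, 0.134 ± 0.0887 in CDC-EpiC and 1.55 ± 0.444 in pEpiC, and fell by 4.72 on the log2 scale in CDC-EpiC against CDC (SE 0.33, adjusted p = 5.7e-09 by edgeR). Sfn, the epithelial 14-3-3 protein, rose over CDC by 0.54 in CDC-EpiC (SE 0.16, adjusted p = 0.00881 by edgeR) and by 0.51 in pEpiC (SE 0.16, adjusted p = 0.0147 by edgeR).

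Vimentin was among the most abundant transcripts of each kind, ranking 18th by mean TPM in CDC, 71st in CDC-EpiC and 34th in pEpiC. It had 95645, 92626 and 99764 counts in CDC, 50728, 45730 and 52908 in CDC-EpiC and 46001, 45704 and 45890 in pEpiC. Every CDC library lay well above every library of the other kinds. Vim was 1.98-fold lower in CDC-EpiC than in CDC (log2 −0.98, SE 0.09, adjusted p = 1.2e-07 by edgeR) and 2.26-fold lower in pEpiC (log2 −1.18, SE 0.06, adjusted p = 5.6e-08 by edgeR). With the length offset the change in pEpiC was log2 −0.84 (adjusted p = 7.1e-07 by edgeR). Over all settings it ran from log2 −1.23 to −0.67 in pEpiC and from −1.04 to −0.91 in CDC-EpiC, so which fall was larger depended on the scale. Vim was thus lower in CDC-EpiC and in pEpiC than in CDC, yet the lowest of all 9 libraries, CDC-EpiC library 2, still held 2056 TPM.

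Between CDC-EpiC and pEpiC the direction of Vim depended on the scale. It was log2 0.15 higher in CDC-EpiC on counts (SE 0.06, adjusted p = 0.0455 by edgeR), lower by log2 −0.23 on TPM (adjusted p = 0.0105 by limma) and lower by log2 −0.20 with a length offset (adjusted p = 0.0144 by edgeR). The call on counts was also lost without CDC-EpiC library 1 or 3 or any 1 of the pEpiC libraries (adjusted p = 0.0553 to 0.134 by edgeR), with RLE scaling (0.0752) and with all 9 libraries in 1 fit (0.0502). Fitted changes between CDC-EpiC and pEpiC varied with the length of the transcript, by log2 −0.44 per doubling of length over 10696 genes, against 0.02 over 10456 genes between CDC-EpiC and CDC.

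The keratin to vimentin ratio, the summed TPM of Krt7, Krt8, Krt18 and Krt19 over that of Vim, was 1.38%, 1.23% and 0.927% in the CDC libraries, 2.24%, 2.01% and 2.08% in CDC-EpiC and 0.734%, 0.715% and 0.777% in pEpiC. The libraries of the 3 kinds did not overlap, with CDC-EpiC highest. The mean log2 ratio of CDC-EpiC exceeded that of CDC by 0.86, and it was lower in pEpiC than in CDC (log2 difference −0.65) and 1.51 higher in CDC-EpiC than in pEpiC, each with an exact two-sided permutation p = 0.1, the smallest that 3 against 3 libraries can give. The high ratio of CDC-EpiC came with a keratin sum near that of CDC and a Vim level near that of pEpiC. Within that sum Krt19 was lower than in CDC (37.2 against 48.3 mean TPM) and Krt7 was higher (10.0 against 0.797).

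Nestin was raised in pEpiC and reduced in the clone. It had 351, 305 and 327 counts in CDC, 97, 106 and 90 in CDC-EpiC and 783, 750 and 899 in pEpiC. The 3 kinds did not overlap, with CDC-EpiC lowest and pEpiC highest. Nes was 3.44-fold lower in CDC-EpiC than in CDC (log2 −1.78, SE 0.12, adjusted p = 3.9e-09 by edgeR), 2.29-fold higher in pEpiC than in CDC (log2 1.196, SE 0.09, adjusted p = 9.9e-07 by edgeR) and 8.11-fold lower in CDC-EpiC than in pEpiC (log2 −3.02, SE 0.11, adjusted p = 3.3e-09 by edgeR).

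With its long transcript of 6195 bases, Nes was sensitive to the length trend between pEpiC and CDC (log2 0.45 per doubling of length over 10685 genes), and its rise was 0.77 on the log2 scale with the length offset. Nestin is also known in pericytes, endothelial cells and Schwann cells, and the marker lists of all 3 had their highest sums in pEpiC, as Nes did, but not all their genes followed it. The 5 pericyte markers summed to 32.8 to 35.9 CPM in CDC, 7.83 to 9.97 in CDC-EpiC and 48.3 to 55.7 in pEpiC, most of it Notch3, with 33.2, 7.24 and 44.8 mean CPM. Against CDC 1 pericyte marker rose (Kcnj8) and 1 fell (Notch3) of 2 tested in CDC-EpiC, and 3 of 3 rose in pEpiC, where Notch3 did not pass with the length offset (adjusted p = 0.0605 by edgeR). Cspg4 and Abcc9, the others that rose in pEpiC, did so by log2 5.20 and 3.77 (adjusted p = 4.4e-06 and 4.6e-06 by edgeR). Both still passed with the length offset (log2 4.66 and 3.25, adjusted p = 1.6e-05 and 2.0e-05 by edgeR). Their mean CPM in CDC, CDC-EpiC and pEpiC was 0.0759, 0.0889 and 3.08 for Cspg4 and 0.305, 0.327 and 4.35 for Abcc9. Kcnj8 ran opposite to Nes, at 0.441, 1.10 and 0.247 mean CPM in CDC, CDC-EpiC and pEpiC.

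The 10 endothelial markers summed to 7.19 to 8.12 CPM in CDC, 8.37 to 9.86 in CDC-EpiC and 23.7 to 25.9 in pEpiC. Of them 2 rose (Tek and Egfl7) and 0 fell of 3 tested in CDC-EpiC against CDC, where Nes fell. Egfl7 only just passed (log2 0.33, adjusted p = 0.0497 by edgeR), and its libraries overlapped. Tek had 2 to 3 counts in CDC and 19 to 25 in CDC-EpiC. In pEpiC against CDC 3 rose (Tek, Vwf and Kdr) and 1 fell (Egfl7) of 4. Most of the pEpiC sum was Tek, at 0.122, 0.937 and 17.6 mean CPM in CDC, CDC-EpiC and pEpiC. Tek, Vwf and Kdr rose there by log2 7.07, 2.18 and 1.33 (adjusted p = 8.6e-10, 5.4e-04 and 0.00177 by edgeR). The defining endothelial markers were low, with Cdh5 at 0 to 12 counts in CDC, 0 in all CDC-EpiC libraries and 3 to 22 in pEpiC, and Pecam1 at 2 to 6, 0 to 2 and 1 to 17. The 5 Schwann markers summed to 2.04 to 2.72 CPM in CDC and 1.36 to 2.39 in CDC-EpiC, which overlap, and to 3.38 to 4.70 in pEpiC, and Sox10, the defining marker, had at most 4 counts in any library. The part of these cells in the Nes levels was not tested. The macrophage list also rose in pEpiC, and without pEpiC library 1 the change of Nes over CDC was 1.22.

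Among the remaining keratins few were detected: of 29 rows of the keratin family, members included, 19 had at most 3 counts in every library. Over the whole family 1 rose and 2 fell of 5 tested in CDC-EpiC against CDC, 3 rose and 3 fell of 7 in pEpiC against CDC, and 3 were higher and 2 lower of 6 in CDC-EpiC against pEpiC. Median log2 changes of the tested rows were −0.15, −0.54 and 0.37, beside 0.00, 0.02 and −0.02 for all genes. Krt80, a type II keratin of differentiating epithelia, was at 6.82 ± 0.379 CPM in CDC, 6.98 ± 0.672 in CDC-EpiC and 1.76 ± 0.547 in pEpiC, and it was lower in pEpiC than in CDC (log2 −1.998, SE 0.20, adjusted p = 7.4e-06 by edgeR). Like Krt19, it was high in CDC and CDC-EpiC and low in pEpiC. Krt10, a suprabasal keratin, had 22 to 47 counts in CDC, 24 to 35 in CDC-EpiC and 20 to 26 in pEpiC, and passed in none of the comparisons (adjusted p = 0.679, 0.158 and 0.213 by edgeR). Krt13 had 28 counts in CDC-EpiC, 18 in CDC and 1 in pEpiC in all, and Krt222 stayed at or below 0.203 mean CPM, both below the filter in every comparison.

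Other filament proteins that passed in the clone were all lower than in CDC. Of all genes tested in that comparison, 34.6% passed as lower and 34.2% as higher in CDC-EpiC. Of 14 genes of types III to VI other than Vim and Nes, 0 rose and 5 fell of 6 tested in CDC-EpiC against CDC, 3 rose and 3 fell of 7 in pEpiC against CDC, and 3 were higher and 2 lower of 6 in CDC-EpiC against pEpiC (medians −0.86, −0.11 and −0.13). The nuclear lamins, which line the inside of the nuclear envelope, were lower in CDC-EpiC and in pEpiC than in CDC. Lmna was at 735 ± 61.4 CPM in CDC, 375 ± 14.6 in CDC-EpiC and 316 ± 12.6 in pEpiC, and fell by 0.98 and 1.26 on the log2 scale (adjusted p = 8.8e-08 and 2.1e-07 by edgeR). Lmnb1 fell by 0.69 and 2.18 and Lmnb2 by 0.75 and 1.52 on the log2 scale (adjusted p at most 6.3e-06 by edgeR). Desmin (Des), the type III filament of muscle, had 48, 64 and 17 counts in CDC, 6, 9 and 15 in CDC-EpiC and 1810, 1933 and 2182 in pEpiC. It was log2 5.41 higher in pEpiC than in CDC (SE 0.23, adjusted p = 2.0e-08 by edgeR) and log2 −2.13 lower in CDC-EpiC (SE 0.45, adjusted p = 6.0e-04 by edgeR), and the CDC libraries with cardiac myosin, 1 and 2, were those with more Des. Syncoilin (Sync), a desmin-binding type III protein named after its values were seen, had the same order as Nes and Des, at 4.88 ± 0.863 CPM in CDC, 1.65 ± 0.298 in CDC-EpiC and 15.5 ± 2.25 in pEpiC. Cardiomyocyte markers summed to 9.51 to 30.1 CPM in CDC, 10.1 to 12.7 in CDC-EpiC and 137 to 154 in pEpiC. In pEpiC that sum was mostly Tnnt2 at 145 ± 8.09 CPM, while Myh6 had at most 1 count per library.

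Linker proteins, which tie filaments to junctions and to other fibers, moved in both directions. Of 16 cytolinkers and desmosome plaque proteins, 4 rose and 3 fell of 10 tested in CDC-EpiC against CDC, 7 rose and 3 fell of 11 in pEpiC against CDC, and 5 were higher and 4 lower of 11 in CDC-EpiC against pEpiC (medians 0.03, 0.41 and 0.29). Plakoglobin (Jup), which links cadherins to keratin in desmosomes, rose from 59.8 ± 4.53 CPM in CDC to 288 ± 18.6 in CDC-EpiC and 157 ± 8.11 in pEpiC. These are log2 changes of 2.26 (SE 0.09, adjusted p = 4.8e-12) and 1.35 (SE 0.07, adjusted p = 8.8e-08 by edgeR). Plectin (Plec), a giant linker that binds vimentin and keratins, was at 621 ± 53.3 CPM in CDC, 315 ± 38.1 in CDC-EpiC and 304 ± 17.6 in pEpiC. It fell by 0.98 and 1.08 on the log2 scale (adjusted p = 3.8e-07 and 6.6e-07 by edgeR), and no difference between CDC-EpiC and pEpiC was called (log2 0.05, adjusted p = 0.590 by edgeR), while with the length offset Plec was higher in CDC-EpiC (log2 0.93, adjusted p = 3.5e-06 by edgeR). The linkers Dst and Macf1, which join filaments, actin and microtubules, rose over CDC in pEpiC by log2 0.49 and 1.03 (adjusted p = 9.8e-04 and 2.1e-06 by edgeR). They are very long transcripts, and with the length offset Dst was lower in pEpiC (log2 −0.50, adjusted p = 9.3e-04 by edgeR) and Macf1 did not pass (log2 0.08, adjusted p = 0.414 by edgeR). In CDC-EpiC against CDC, Dst fell by 0.62 on the log2 scale (adjusted p = 4.5e-05 by edgeR) and Macf1 did not pass (log2 −0.05, adjusted p = 0.636 by edgeR). Periplakin (Ppl), which binds keratins and vimentin and was named after its values were seen, rose in CDC-EpiC by log2 1.22 (SE 0.08, adjusted p = 1.5e-09 by edgeR) and fell by 3.04 on the log2 scale in pEpiC (SE 0.11, adjusted p = 5.0e-09 by edgeR). Desmoplakin (Dsp), the plaque protein that anchors keratin to desmosomes, had 0 to 13 counts per library and was below the filter in every comparison. So were Dsg2 and Dsc2 of the same list, with at most 9 and 12 counts per library, while Pkp2 rose over CDC by log2 0.76 in CDC-EpiC and 0.41 in pEpiC. The rise of Jup thus came with few transcripts of Dsp, Dsg2 and Dsc2.

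**Figure D4:**
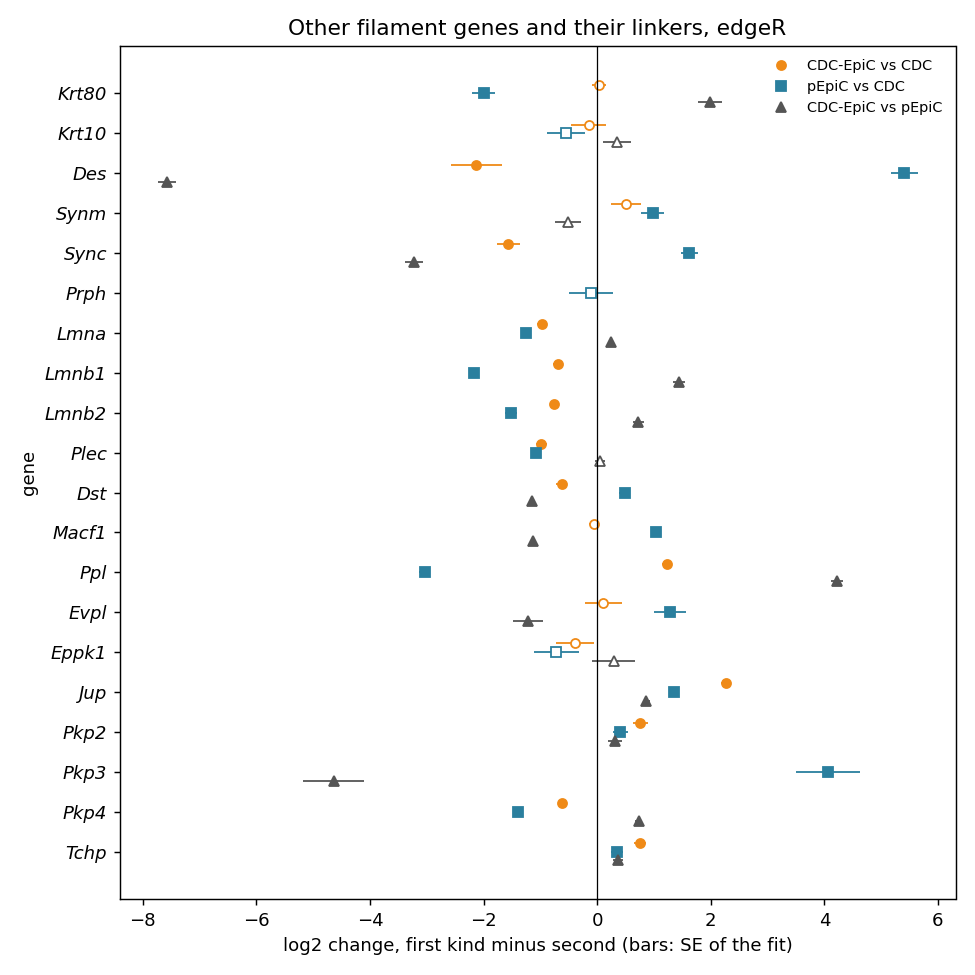
Fitted log2 change of the other keratins, the other filament proteins and the linkers that passed the count filter in at least 1 comparison, with bars of 1 SE. Filled symbols passed an adjusted p of 0.05 and open symbols did not. Jup lies to the right in all 3 comparisons, the lamins to the left against CDC, and Ppl and Des move in opposite directions in the clone and in pEpiC. No length offset is applied here.

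Of 11 transcription factors known for keratin genes, 4 were tested. In CDC-EpiC against CDC 3 rose and 1 fell, in pEpiC against CDC 1 rose and 2 fell, and in CDC-EpiC against pEpiC 3 were higher and 1 lower. Grhl1, a grainyhead factor of epithelia, was at 13, 13 and 11 counts in CDC, 63, 45 and 52 in CDC-EpiC and 3, 3 and 5 in pEpiC, log2 2.06 higher in the clone than in CDC (SE 0.25, adjusted p = 2.7e-06 by edgeR). Tfap2a, an AP-2 factor of surface ectoderm, was at 12, 6 and 3 counts in CDC, 24, 30 and 38 in CDC-EpiC and 11, 13 and 8 in pEpiC, log2 2.07 higher in the clone (SE 0.38, adjusted p = 2.0e-04 by edgeR). Both lay above CDC in every CDC-EpiC library. Klf5 rose by log2 0.45 in the clone (adjusted p = 0.00695 by edgeR) and fell by 0.80 on the log2 scale in pEpiC (adjusted p = 4.9e-04 by edgeR). Klf4, a factor of epithelial barriers also found in mesenchymal cells, went the other way, at 96.2 ± 1.82 CPM in CDC, 67.1 ± 7.15 in CDC-EpiC and 146 ± 15.9 in pEpiC (log2 −0.52 and 0.56, adjusted p = 4.8e-05 and 8.9e-05 by edgeR).

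For the 4 genes tested in all comparisons, the genes nearest in pattern were found over the 9 libraries among 12621 genes, as the smallest distance between log2 CPM values centered on each gene's mean. Krt7 was nearest to Hsf4 (0.349, 5.81 and 4.21 mean CPM in CDC, CDC-EpiC and pEpiC), Cotl1 (11.9, 102 and 68.3) and Nrp2 (18.1, 135 and 115). Krt19 was nearest to Npnt (91.8, 87.5 and 4.34), Tuft1 (113, 113 and 6.87) and Pax3 (19.8, 18.5 and 0.857). Each of these had its lowest level in the kind where the keratin was lowest. Vim was nearest to Klhl23 (9.19, 4.49 and 3.85), Cpne2 (69.2, 36.9 and 34.5) and Chid1 (63.6, 34.2 and 28.2). Nes was nearest to Gria3 (31.9, 9.75 and 74.3), Trim46 (13.2, 4.22 and 35.3) and Akap12 (173, 56.3 and 400). These are descriptions over libraries that fall into 3 kinds, and many genes share so simple an order.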

How the data were processed

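RNA from 3 libraries each of CDC, CDC-EpiC and pEpiC was enriched on oligo(dT) beads and sequenced as 100-base pairs. The authors deposited 1 table with expected counts, FPKM and TPM for each gene and library. Its 9 columns of means were not used. The labels name HISAT2 2.0.4, Bowtie2 2.2.5, RSEM 1.2.12, DESeq2 1.4.5 and mm10. Their roles, the gene annotation and strand are not given in the sources used here. Expected counts as deposited (30.3% not whole) were rounded. Each pair of kinds was fitted over all genes with edgeR 4.0.16 (glmQLFit and glmQLFTest, TMM, filterByExpr with a minimum of 10 counts and a total of 15), adjusted by Benjamini-Hochberg and called at 0.05. limma 3.58.1 and DESeq2 1.42.0 were alternatives, as were other filters, scalings, a transcript-length offset (lengths implied by the deposited counts and FPKM), log2(TPM + 1) and leaving out each library. Leaving out CDC libraries 1 and 2, and a block on library number, were chosen after seeing the data. The fit was tested on simulated data. Unlike the data here, these had few changed genes, evenly up and down, and no length trend. That test therefore does not cover such conditions. No libraries of a kind were duplicates (chi-square per degree of freedom 4.89 to 23.0). Intervals were exact and cover counting error.

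The 8 genes and all lists were chosen with earlier results of these data known. Named were the 8 genes, up to 4 of the other keratins and of each filament, linker and regulator list by mean CPM, and the 3 nearest patterns of each gene tested throughout. Of the regulator and stratified lists, 1 gene each had no row and was not analysed here. Coordinates are those of GENCODE M21 on GRCm38, and promoters are from RefSeq.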

Additional observations from a re-analysis of the deposited data

How the results depend on the processing

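Of 276 alternative values for single genes, 256 kept their direction and side of the threshold, 17 lost the call and 3 reversed. The losses concerned Krt19 in CDC-EpiC against CDC and Krt7 and Vim in CDC-EpiC against pEpiC. The reversals were Vim with log2(TPM + 1) (−0.23) and with the length offset (−0.20) and Krt7 with the length offset (−0.0636). Requiring 10 counts in every library left 4 members and 3 keratins called in pEpiC against CDC, and 3 and 3 in CDC-EpiC against pEpiC, since that filter removes genes low in 1 kind by construction. The Krt8 to Krt18 log2 ratio in CDC-EpiC against pEpiC ran from −0.40 to 0.33 when each library was left out, with 0.33 without CDC-EpiC library 3 and 0.14 without pEpiC library 1. With log2(TPM + 1) the pseudocount shrinks low genes by construction, to 1.90 for Krt8 and 1.93 for Krt18 in pEpiC against CDC. The table's columns are numbered 1 to 3 in each kind, but no source links a number across kinds, and deviations of same-numbered libraries correlated weakly (−0.101 to 0.125). With the number as a replicate block, chosen after seeing the data, 8831, 10604 and 11096 genes were called against 8928, 10593 and 11091, and of the members only Vim in CDC-EpiC against pEpiC lost its call (log2 0.15, adjusted p = 0.0572 by edgeR). Depth limits Krt8, Krt18, Krt14 and Krt5 most.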
